A study of Mus musculus with 9 samples.

Results

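The CCAAT/enhancer binding proteins (C/EBPs) are a small family of basic leucine zipper transcription factors, and the genes that encode 5 of them (*Cebpa*, *Cebpb*, *Cebpd*, *Cebpe*, and *Cebpg*) were taken by symbol from the 19937 genes measured. All 5 were found, each on 1 probe set to which the platform annotation gives no other gene. They were measured in 3 populations of Ly6Chi CD115+ bone marrow (BM) cells of C57Bl/6 mice at steady state, which the labels give as 8 weeks old: R3 (Flt3+CD11c+), R2 (Flt3+CD11c-), and R1 (Flt3-CD11c-). The gate left out lineage-positive (Ly6G+ neutrophils among them), cKit+, and MHCII+ cells, and the study calls R3 pre-DCs, R2 and R1 monocytes. RNA of each sample (1 ng) was amplified and hybridized to an Affymetrix Mouse Gene ST array, with 3 arrays per population and 9 in all. The labels give 3 dates, each with 1 array of every population, and the arrays of 1 date share a replicate number. The sources used here do not say whether an array holds RNA of 1 mouse or of a pool, or whether replicates are separate mice, and p-values then reflect array-to-array spread that may be technical.

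C/EBP proteins bind DNA as dimers with each other or with other leucine zipper proteins, and the zipper decides the partner. In the BM, C/EBPα is needed for the step from multipotent progenitors to granulocyte and monocyte progenitors, C/EBPβ drives granulopoiesis under cytokine demand and acts in monocytes and macrophages, C/EBPδ is induced in the acute phase, and C/EBPε is needed for the secondary granules of neutrophils. C/EBPγ lacks a transactivation domain of its own and acts through its partners, as an inhibitor in some settings and with ATF4 as an activator in others. DCs and monocytes share myeloid progenitors, and the transcription factor IRF8, which is needed for DC precursors and monocytes, has been described to hold back C/EBPα in mouse mononuclear phagocyte progenitors.

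The promoters are shown first, because C/EBPs are named for a promoter box and their genes can be targets of the family itself. Each is the stretch of 250 bases before the gene start in RefSeq (build GRCm38.p6), written 5′ to 3′ on the strand of the gene. Sequences for 3 of the 5 genes were at hand. *Cebpa* lies on the plus strand at chr7:35119043-35119292, *Cebpb* on the plus strand at chr2:167688665-167688914, and *Cebpg* on the minus strand at chr7:35056567-35056816. Capitals mark TATAAA, searched on the strand of the gene, in *Cebpa* and ATTGG, which is CCAAT on the other strand, in *Cebpg*.
Cebpa: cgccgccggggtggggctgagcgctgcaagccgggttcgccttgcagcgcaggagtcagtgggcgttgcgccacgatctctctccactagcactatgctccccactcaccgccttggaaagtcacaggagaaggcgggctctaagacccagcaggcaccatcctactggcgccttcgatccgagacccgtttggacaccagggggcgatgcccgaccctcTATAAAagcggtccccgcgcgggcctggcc
Cebpb: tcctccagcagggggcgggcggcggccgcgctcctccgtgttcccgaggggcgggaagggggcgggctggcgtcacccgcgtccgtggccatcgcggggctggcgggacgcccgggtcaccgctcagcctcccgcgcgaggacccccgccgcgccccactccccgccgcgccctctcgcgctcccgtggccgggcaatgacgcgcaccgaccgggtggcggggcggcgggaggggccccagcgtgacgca
Cebpg: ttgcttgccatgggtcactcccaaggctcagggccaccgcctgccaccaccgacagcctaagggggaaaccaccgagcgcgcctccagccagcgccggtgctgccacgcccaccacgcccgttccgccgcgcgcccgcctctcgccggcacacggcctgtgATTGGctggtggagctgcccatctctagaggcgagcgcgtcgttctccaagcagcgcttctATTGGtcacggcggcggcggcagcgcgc

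The TATAAA of *Cebpa* starts 30 bases before the gene start, and 7.59% of 32851 RefSeq promoters of this length hold these letters on the strand of the gene. In *Cebpg*, ATTGG stands 89 and 28 bases before the start, and 33.8% of promoters hold CCAAT on either strand. The *Cebpb* window, with 81.6% G or C, has neither. None of the 3 windows has TTGCNNAA or the looser TTNNGNAA, the letters of a C/EBP binding site (found on either strand in 9.56% and 36.8% of promoters, the first being a part of the second), or GAGGAAGT, those of a site of PU.1, the myeloid ETS factor (2.44%). These motifs were chosen after several had been looked at, and a match is a description and not a site. Likewise, a window without these exact letters may still hold a site of the factor. *Cebpg* and *Cebpa* are neighbors on chromosome 7, with 1 RefSeq gene, the non-coding RNA *Gm35611*, and 0 protein-coding genes between them.

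The sort showed in the RNA. *Flt3* had log2 intensities of 10.99, 11.09, and 11.03 in R3, 7.70, 8.02, and 8.01 in R2, and 6.74, 7.78, and 7.17 in R1. *Itgax* (CD11c) was at 10.79, 10.85, and 10.70 in R3, 5.30, 6.04, and 6.18 in R2, and 5.06, 5.24, and 5.33 in R1, so that R3 stood apart in both genes of its gate, whereas R2 and R1 overlapped. Of 11 DC markers, *Flt3* and *Itgax* included, 10 were called higher in R3, both against R2 and against R1. Summed linear intensities of 7 monocyte markers lay between 11029 and 13037 in R3, 20501 and 21991 in R2, and 22606 and 24948 in R1. Those of 9 neutrophil markers lay between 281 and 4073 in R3, 302 and 718 in R2, and 211 and 437 in R1, and replicate 1 of R3 was the highest. Array medians were 5.86 to 6.02 (log2), and arrays of 1 population correlated across genes at 0.990 to 0.997. In sorted bulk samples, fewer cells of a type and less RNA per cell cannot be told apart.

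Of the 5 C/EBP genes, *Cebpb*, *Cebpd*, and *Cebpe* were lower in R3 than in R2 and than in R1, whereas *Cebpa* and *Cebpg* did not pass the test. The test was 1 limma fit of log2 intensities over the 9 arrays, and a call means a p under 0.05 after Benjamini-Hochberg adjustment over the 19937 genes. The 3 calls among 5 members stand beside 4.69% of all genes called lower and 4.85% called higher for R3 minus R2, and 7.02% called lower and 6.49% called higher for R3 minus R1. Between R2 and R1, 0 members were called, beside 0.211% of genes called higher and 0.181% called lower in R2 (78 genes in all, or 23 once the label date was fitted as a block). By the unadjusted p under 0.05 this comparison had 1 member, *Cebpb*, and 2129 genes in all. With the unpaired test that the methods name, after the same adjustment, 1 member was called lower in R3 in each comparison, *Cebpb*. The 3 R3 arrays enter both comparisons with the monocytes, so these are not independent.

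**Figure D1:**
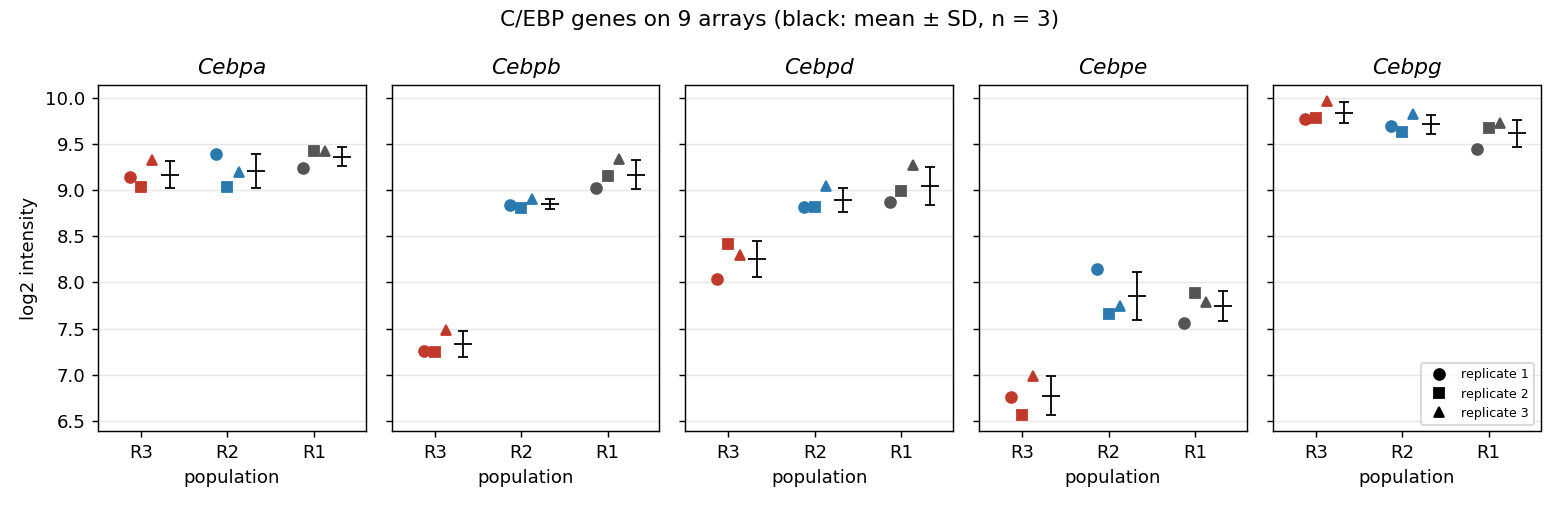
Log2 intensity of each C/EBP gene (one panel per gene) on the 9 arrays, by population (R3, R2, R1), with a marker shape for the replicate number and the mean ± SD of 3 arrays in black. The R3 arrays of *Cebpb*, *Cebpd*, and *Cebpe* sit below those of R2 and R1, and those of *Cebpa* do not. Heights are not comparable between panels, since each panel is another probe set.

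*Cebpb* had the largest difference. Its log2 intensity (probe set 10478890) was 7.26, 7.24, and 7.49 on the R3 arrays, 8.84, 8.80, and 8.90 on the R2 arrays, and 9.02, 9.15, and 9.33 on the R1 arrays. All R3 arrays were below all others by more than a log2 unit, and all R2 arrays were below all R1 arrays. The log2 difference was -1.52 for R3 minus R2 (95% interval -1.74 to -1.29, adjusted p = 1.59e-05 from limma), which makes *Cebpb* 2.86-fold higher in R2. For R3 minus R1 it was -1.84 (-2.06 to -1.61, adjusted p = 3.75e-06), 3.57-fold higher in R1. By p it ranked 107 of all genes in the first comparison and 84 in the second. Within the 3 dates, R3 minus R2 ranged from -1.58 to -1.41 and R3 minus R1 from -1.91 to -1.76.

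*Cebpb* was also the member in which R2 and R1 were farthest apart relative to their spread. R2 minus R1 was -0.32 (95% interval -0.54 to -0.10), and R2 was lower on each of the 3 dates, by -0.18, -0.35, and -0.43. The difference did not pass the test over all genes (unadjusted p = 0.0101, adjusted p = 0.257, limma). Arrays of R2 that all lie below those of R1 were found for 7.99% of genes, and *Cebpb* was 1 member of 5 with this order. On the way from the R1 mean to the R3 mean, the R2 mean of *Cebpb* had covered 17.4% on the log2 scale.

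*Cebpe*, the factor of late granulocyte maturation, was lower in R3 as well. On probe set 10419850 its log2 intensity was 6.76, 6.56, and 6.99 in R3, 8.15, 7.66, and 7.74 in R2, and 7.56, 7.88, and 7.79 in R1. No R3 array overlapped the other populations, and R2 and R1 overlapped each other. R3 minus R2 was -1.08 (95% interval -1.43 to -0.73, adjusted p = 0.00190, limma), and R3 minus R1 was -0.97 (-1.32 to -0.62, adjusted p = 0.00264). The highest R2 value was that of replicate 1, and by date R3 minus R2 was -1.39, -1.10, and -0.75. R2 minus R1 was 0.11 (-0.24 to 0.46, adjusted p = 0.874), 0.59 on the first date and -0.22 and -0.04 on the others. Without the 3 arrays of replicate 2, *Cebpe* was no longer called for R3 against R1 (-0.80, adjusted p = 0.0667).

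*Cebpd*, which cytokines of the acute phase induce, differed less. Its log2 intensity (probe set 10433885) was 8.04, 8.42, and 8.30 in R3, 8.81, 8.81, and 9.04 in R2, and 8.87, 8.99, and 9.27 in R1. All R3 arrays were below the others, and R2 and R1 overlapped. R2 replicates 1 and 2 hold exactly the same linear intensity (450.028), and what this tie does to the spread was not tested. R3 minus R2 was -0.64 (95% interval -0.94 to -0.34, adjusted p = 0.0140, limma), R3 minus R1 was -0.79 (-1.09 to -0.50, adjusted p = 0.00336), and R2 minus R1 was -0.15 (-0.45 to 0.14, adjusted p = 0.770). The call against R2 was lost without R2 replicate 3 (adjusted p = 0.0647) and without the arrays of replicate 1, 2, or 3 (0.0863, 0.0992, and 0.0992). In RefSeq the gene *Spidr* overlaps *Cebpd*, and whether the probe set also reads *Spidr* was not tested.

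*Cebpa*, the factor of early myeloid commitment, did not differ between the 3 populations beyond their spread. Its log2 intensity (probe set 10552140) was 9.14, 9.03, and 9.32 in R3, 9.39, 9.03, and 9.19 in R2, and 9.24, 9.43, and 9.42 in R1. The populations overlapped in each comparison. R3 minus R2 was -0.04 (95% interval -0.30 to 0.21, adjusted p = 0.918, limma), R3 minus R1 was -0.20 (-0.45 to 0.06, adjusted p = 0.346), and R2 minus R1 was -0.16 (-0.41 to 0.10, adjusted p = 0.713). These intervals leave out differences as large as those measured for *Cebpb* and *Cebpe* in R3, but not small ones.

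*Cebpg*, whose product lacks a transactivation domain, had its highest mean in R3, unlike the other members. On probe set 10562416 its log2 intensity was 9.77, 9.78, and 9.97 in R3, 9.69, 9.62, and 9.82 in R2, and 9.45, 9.67, and 9.73 in R1. The R3 arrays were above all R1 arrays and overlapped R2. R3 minus R1 was 0.23 (95% interval 0.01 to 0.45, unadjusted p = 0.0453, adjusted p = 0.194, limma), R3 minus R2 was 0.13 (-0.09 to 0.35, adjusted p = 0.589), and R2 minus R1 was 0.10 (-0.12 to 0.32, adjusted p = 0.805). R3 was above R2 and above R1 on each of the 3 dates. In RefSeq the gene *Gm45095* overlaps *Cebpg*, and its part in the signal was not tested.

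**Figure D2:**
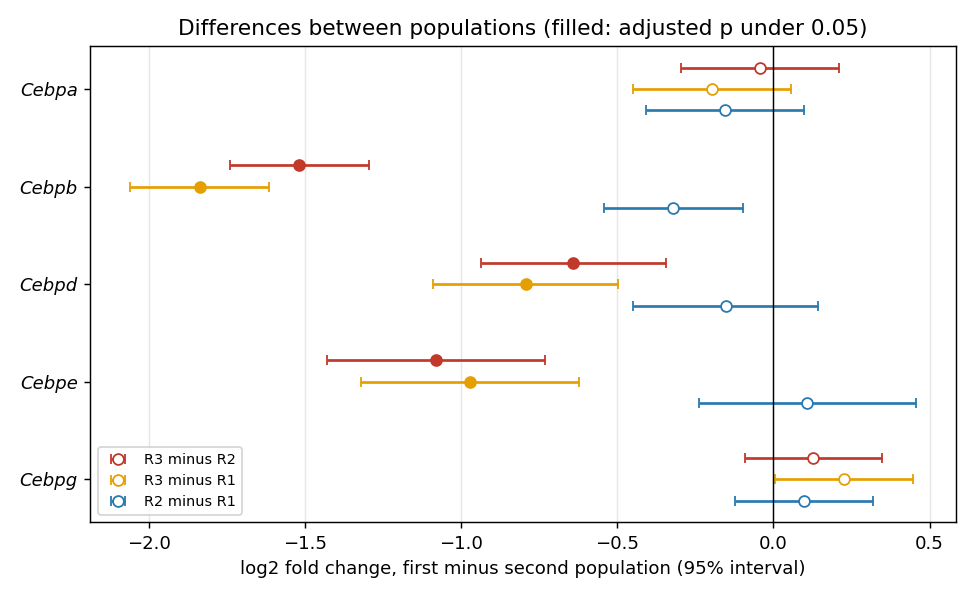
Log2 fold change with 95% interval from limma for each C/EBP gene and each pair of populations, filled where the adjusted p is under 0.05. The 6 filled points are those of *Cebpb*, *Cebpd*, and *Cebpe* for R3 minus R2 and R3 minus R1, and the intervals of *Cebpa* all include 0.

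Among the members called, the monocyte populations lay close together and R3 apart, which follows in large part from calling them by R3. Of the distance from the R1 mean to the R3 mean, R2 had covered 17.4% for *Cebpb*, 19.2% for *Cebpd*, and -11.2% for *Cebpe*. In *Cebpe*, R2 was a little above R1. For the members not called, R2 had covered 78.6% (*Cebpa*) and 43.3% (*Cebpg*) of the small distances of 0.20 and 0.23. Over all genes too, few were called between R2 and R1 (78, beside 1903 for R3 minus R2 and 2693 for R3 minus R1). All 3 R3 arrays lay below all 3 arrays of R2 in 3 members, beside 12.2% of all genes, and below all 3 arrays of R1 in the same 3 members, beside 12.9% of all genes. Without R3 replicate 1, the array with the most neutrophil marker signal, R3 minus R2 was -1.48 for *Cebpb*, -0.53 for *Cebpd*, and -1.08 for *Cebpe*, and all 3 were called (adjusted p = 0.000161, 0.0486, and 0.0102, limma). R3 minus R1 was then -1.80, -0.69, and -0.97, and all 3 were called. The monocyte marker sum was lower in R3 on all 3 arrays, as these members were, but its genes did not all move one way. Of the 7, 4 were called lower in R3 than in R2, 1 was called higher, and 2 were not called, and against R1 the counts were 5, 0, and 2. The gene called higher, named after its values were seen, was the chemokine receptor *Cx3cr1* (0.63, adjusted p = 0.00993, limma), which was not called without the arrays of replicate 1 or 2 (0.0746 and 0.102). The part of these markers in the differences of the members was not tested.

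Because family members share dimer partners, the balance between them was compared as well. The log2 ratio of 2 members was taken on each array, where scaling of the array cancels, and set against the same ratio in another population. The ratio of 2 probe sets has no meaning as a level, so only its change between populations is read. Of the 10 pairs, *Cebpg* over *Cebpb* had the largest change in both comparisons with R3. The log2 ratio was 2.51, 2.53, and 2.48 in R3, 0.85, 0.82, and 0.92 in R2, and 0.43, 0.52, and 0.39 in R1. The populations did not overlap, and R2 lay between the others. The ratio was 1.65 higher in R3 than in R2 (95% interval 1.55 to 1.74), 2.06 higher in R3 than in R1 (1.96 to 2.16), and 0.42 higher in R2 than in R1 (0.32 to 0.52). The exact two-sided permutation test gave p = 0.1 for each of these, which is the smallest p that 3 arrays against 3 allow, and an adjusted p of 0.111, 0.111, and 0.2 over the 10 pairs of members.

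The balance of *Cebpb* and *Cebpa* changed in the same sense. *Cebpb* over *Cebpa* was -1.88, -1.78, and -1.83 in R3, -0.55, -0.23, and -0.29 in R2, and -0.22, -0.28, and -0.09 in R1. The R3 arrays stood apart, and R2 and R1 overlapped. The change was -1.47 for R3 minus R2 (95% interval -1.71 to -1.24) and -1.64 for R3 minus R1 (-1.87 to -1.41). *Cebpe* over *Cebpa* changed by -1.04 (-1.20 to -0.87) and -0.77 (-0.94 to -0.61), and *Cebpd* over *Cebpa* by -0.60 in both comparisons (-1.04 to -0.16 against either R2 or R1). The members that were lower in R3 also differed among themselves: *Cebpe* over *Cebpb* was 0.44 higher in R3 than in R2 (0.07 to 0.80), and *Cebpd* over *Cebpb* 0.88 higher (0.60 to 1.16). *Cebpe* over *Cebpd* changed by -0.44, with an interval of -1.02 to 0.14 that includes 0. In all, the interval left out 0 in 8 of 10 pairs for R3 minus R2, in 9 for R3 minus R1, and in 4 for R2 minus R1. These intervals are not adjusted for the number of pairs, and no permutation p could be under 0.1. The change of a ratio is the difference of its members' own changes given above, so these counts are not further evidence beside them. The 10 pairs come from 5 genes, and the share over other pairs of genes was not computed.

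The genes whose pattern over the 9 arrays was most like that of *Cebpb* were *Siglece*, an inhibitory receptor of myeloid cells that binds sialic acid, *Idh1*, the cytosolic isocitrate dehydrogenase, and *Gapt*, an adaptor that binds GRB2. Their Pearson correlations with *Cebpb* were each 0.997, the highest among 840 genes whose population means differed by at least 1 on the log2 scale. *Siglece* averaged 6.90 ± 0.22 (log2, SD, n = 3) across R3 arrays, against 9.08 ± 0.12 across R2 and 9.49 ± 0.19 across R1 arrays. The same measure gave *Grb14*, an adaptor of the insulin receptor (0.972), *Cyba*, the p22phox subunit of the phagocyte NADPH oxidase (0.969), and the receptor *Clec5a* (0.967) for *Cebpe*. *Clec5a* averaged 5.59 ± 0.69 across R3 arrays, against 9.30 ± 0.11 across R2 and 9.07 ± 0.30 across R1 arrays. The 9 points of such a correlation are 3 populations of 3 arrays, so the gap between R3 and the monocytes enters each of them, and they are given as a description.

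Of 11 genes for dimer partners of C/EBPs or for their turnover, few differed. Compared with R2, 1 was called higher in R3 and 1 lower (median log2 difference 0.01, beside -0.01 for all genes), and compared with R1, 0 were called higher and 2 lower (median -0.02, beside -0.02 for all genes). The one that stood out was *Nfil3*, a basic leucine zipper repressor that the development of natural killer cells and type 1 conventional DCs needs. Its log2 intensity was 6.18, 6.96, and 6.27 in R3, 9.55, 9.43, and 9.63 in R2, and 9.92, 10.02, and 9.99 in R1. R3 was below both monocyte populations on every array, by -3.07 against R2 (adjusted p = 8.38e-06, limma) and -3.50 against R1 (adjusted p = 2.81e-06). *Atf3*, a stress-induced leucine zipper factor, was called lower in R3 than in R1 (-1.49, adjusted p = 0.00887) and was named after its value was seen. It was not called without the arrays of replicate 1 (0.150) or 2 (0.115).

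*Ddit3* (CHOP), a C/EBP family member that forms dimers with the others and keeps them from classical sites, was at 7.79, 7.96, and 7.83 in R3, 7.66, 7.83, and 7.83 in R2, and 8.13, 7.45, and 7.89 in R1. These arrays overlapped in all comparisons. *Trib1*, *Trib2*, and *Trib3* encode Tribbles pseudokinases, of which the first pair direct C/EBPα to degradation. None of these 4 genes was called, and their largest absolute log2 difference was 0.08 for R3 minus R2, 0.15 for R3 minus R1, and 0.14 for R2 minus R1. The *Trib* genes were dim, at 5.39 to 6.07 over the 9 arrays, beside array medians of 5.86 to 6.02. At such a level a difference may go unseen. *Cop1*, the ubiquitin ligase that works with Tribbles proteins, was called higher in R3 than in R2 (0.35, adjusted p = 0.0426, limma), a call that held in 9 of 23 alternatives and was lost without any 1 array of R2 or R3 or without R1 replicate 3 (adjusted p from 0.0551 to 0.148), and with the label date as a block (0.0599).

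The genes for transcription factors that act beside C/EBPs in myeloid cells were higher in R3 or were not called. Of 8, 3 were called higher in R3 against R2 and 4 against R1, with 0 called lower in either (median 0.22 and 0.42). *Irf8* was at 11.77, 11.72, and 11.51 in R3, 11.03, 10.95, and 10.86 in R2, and 10.45, 10.68, and 10.69 in R1. These arrays did not overlap between populations. *Irf8* was 0.72 higher in R3 against R2 (adjusted p = 0.00139, limma) and 1.06 higher than in R1 (adjusted p = 0.000103), and without the arrays of replicate 2 the first of these was not called (0.0702). *Klf4*, a factor of monocyte differentiation, was 0.58 and 0.73 higher, and *Runx1*, which acts upstream of PU.1, was 0.43 and 0.79 higher, each in R3 against R2 and R1. Against R2, *Klf4* was not called without the arrays of replicate 1 or 3 (0.0632 and 0.0637). *Runx1* was not called against R2 without R2 replicate 2 or 3 or R3 replicate 1 (0.0682, 0.0618, and 0.0535) or without the arrays of replicate 1, 2, or 3 (0.110, 0.240, and 0.0513).

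*Myb*, a factor of immature hematopoietic cells named here after its values were seen, was the only gene of these called between R2 and R1. It was at 9.29, 9.27, and 9.23 in R3, 9.15, 8.92, and 8.81 in R2, and 8.27, 8.42, and 8.36 in R1. The populations did not overlap, and their order was R3, R2, R1. *Myb* was 0.91 higher in R3 than in R1 (adjusted p = 0.000165, limma) and 0.61 higher in R2 than in R1 (adjusted p = 0.0390). The second call held in 6 of 23 alternatives and was lost when any 1 of the 9 arrays was left out (adjusted p from 0.0574 to 0.168) and with the label date as a block (0.0677). *Spi1*, which encodes PU.1, differed by 0.13 for R3 minus R2 and 0.10 for R3 minus R1, and was not called (adjusted p = 0.581 and 0.619, limma). R2 minus R1 was -0.03 (adjusted p = 0.952, limma). These are RNA values, whereas the study stained PU.1 protein and reports more of it in R3 and R2 than in R1.

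**Figure D3:**
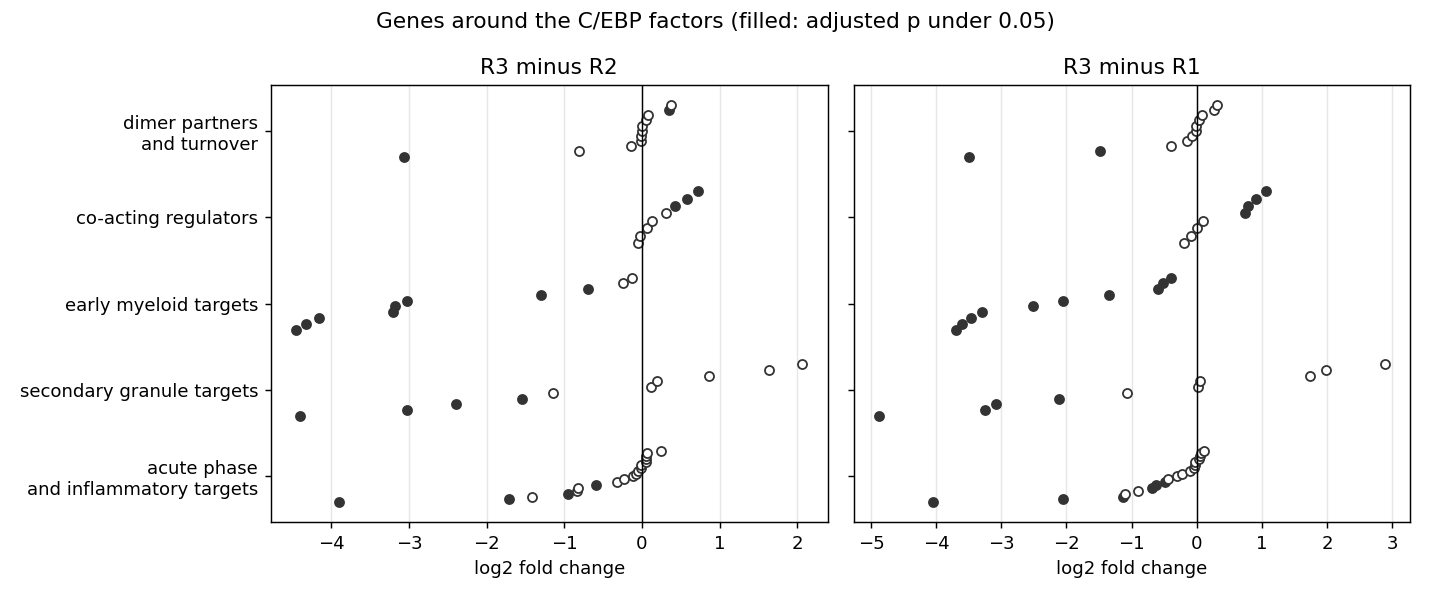
Log2 fold change of each gene (1 point) in 5 lists of genes around the C/EBP factors, for R3 minus R2 and R3 minus R1, filled where the adjusted p is under 0.05. Early myeloid targets run down to -4.45 against R2, co-acting regulators that were called lie above 0, and secondary granule targets fall on both sides of 0.

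Target genes of C/EBPs known from early myeloid cells were lower in R3. Of 10, 8 were called lower in R3 against R2 and 10 against R1, with 0 called higher (median -3.10 and -2.28). Several of these genes also appear in published results of these arrays, so the list is not independent evidence of its direction. *Ctsg* (cathepsin G) was at 6.51, 6.85, and 7.43 in R3, 11.56, 11.20, and 11.38 in R2, and 10.27, 10.59, and 11.03 in R1. R3 minus R2 was -4.45 for *Ctsg*, -4.32 for *Mpo* (myeloperoxidase), -4.16 for *Elane* (neutrophil elastase), -3.21 for *Prtn3* (proteinase 3), and -3.17 for *Ms4a3*, a membrane protein of granulocyte and monocyte progenitors. R3 minus R1 was -3.70, -3.60, -3.46, -2.51, and -2.05 for the same genes, and all 10 of these differences were called by limma. In R2, these 5 genes had means 0.69 to 1.12 above those of R1 and none was called (adjusted p from 0.170 to 0.332). All R2 arrays were above all R1 arrays in *Mpo*, *Elane*, and *Ctsg*, and the share of all genes with this order was not computed. The methods' unpaired test called these 3 higher in R2 before adjustment, beside 575 genes in all. *Ms4a3* was called by limma without R1 replicate 3. The study names *Ctsg* among genes higher in R2 than in R1, in their overlap with genes higher in R3 than in R2. On these arrays *Ctsg* was lower in R3 than in R2, as given above. The 2 genes not called against R2, named after their values were seen, encode the receptors of CSF1 and IL-6, *Csf1r* (-0.24, adjusted p = 0.140) and *Il6ra* (-0.12, 0.501). Against R1 they were called at -0.51 and -0.39, *Csf1r* not without the arrays of replicate 1 (0.0501) or 2 (0.0928), and *Il6ra* not without those of replicate 1, 2, or 3 (0.0660, 0.0755, and 0.103).

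Secondary granule and late neutrophil genes, several of which are known targets of C/EBPε, did not all move together. Of 10, 4 were called lower in R3 than in R2 and the same 4 lower than in R1, and 0 were called higher (median -0.52 and -0.53). *Mmp8*, the neutrophil collagenase, was at 5.44, 5.68, and 6.63 in R3, 10.15, 10.37, and 10.46 in R2, and 10.40, 10.92, and 11.08 in R1. R3 was below the monocytes on every array, by -4.41 against R2 (adjusted p = 1.70e-05, limma) and -4.88 against R1 (adjusted p = 6.64e-06). *Chil3*, a secreted chitinase-like protein, differed by -3.03 and -3.25, *Cd177*, a neutrophil surface protein, by -2.39 and -3.08, and *Ltb4r1*, the leukotriene B4 receptor, by -1.54 and -2.12 in R3 against R2 and R1. These calls in R3 held in all 23 alternatives. *Ltb4r1* was also called between R2 and R1 (-0.58, adjusted p = 0.0320), a call that held in 9 of 23 alternatives and was lost without any 1 array of R2 (adjusted p from 0.140 to 0.167), without R1 replicate 1 or 2 or R3 replicate 1 (0.0548, 0.118, and 0.0639), without the arrays of replicate 1, 2, or 3 (0.249, 0.478, and 0.188), and with the label date as a block (0.0685).

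The other 6 genes of the list were not called in any comparison. *Ngp* (neutrophilic granule protein) was at 10.73, 6.27, and 9.03 in R3, 7.48, 5.85, and 6.51 in R2, and 6.18, 4.67, and 6.50 in R1. *Camp* (cathelicidin) was at 10.79, 6.16, and 8.77 in R3, 8.58, 6.70, and 7.85 in R2, and 6.42, 5.83, and 7.52 in R1. In both genes R3 replicates 1 and 3 were the highest of the 9 arrays, and R3 replicate 2 was within the range of the monocytes. *Ltf* (lactoferrin) was at 8.92, 4.93, and 7.03 in R3, 5.47, 5.27, and 5.25 in R2, and 5.21, 4.83, and 5.60 in R1. Here too R3 replicates 1 and 3 were the highest arrays. R3 minus R2 was 2.07 for *Ngp* (95% interval -0.18 to 4.31), 0.86 for *Camp* (-1.44 to 3.16), and 1.63 for *Ltf* (-0.14 to 3.40). *Lcn2* (lipocalin 2) differed in the other direction and was at 10.48, 6.83, and 9.25 in R3, 9.73, 9.75, and 10.51 in R2, and 8.68, 10.01, and 11.09 in R1. Its R3 replicate 1 was within the range of the monocytes and replicate 2 was the lowest of the 9 arrays, with R3 minus R2 at -1.15 (-3.11 to 0.82) and R3 minus R1 at -1.08 (-3.04 to 0.89). *Mmp9*, the gelatinase of neutrophil granules, and *Itgb2l*, an integrin subunit, were at 4.45 to 4.91 and 5.66 to 6.21 over the 9 arrays. Without R3 replicate 2, *Ngp* and *Ltf* were called higher in R3 against R2, and *Ltf*, *Camp*, and *Ngp* against R1. *Ngp* was also called higher in R3 than in R1 when the dim genes were left out, when the label date was a block, and without the arrays of replicate 2. These 6 genes were named after their values were seen, and *Ngp*, *Camp*, *Ltf*, and *Mmp9* are among the 9 neutrophil markers summed above. *Ly6g*, the marker by which neutrophils were gated out, was between 4.21 and 5.03 on all 9 arrays. *Cebpe* itself was at 6.76, 6.56, and 6.99 in R3. Its replicate 2 was the lowest, as in *Ngp*, *Camp*, *Ltf*, and *Lcn2*, but replicate 3 rather than replicate 1 was the highest. A shared source of these values was not tested.

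**Figure D4:**
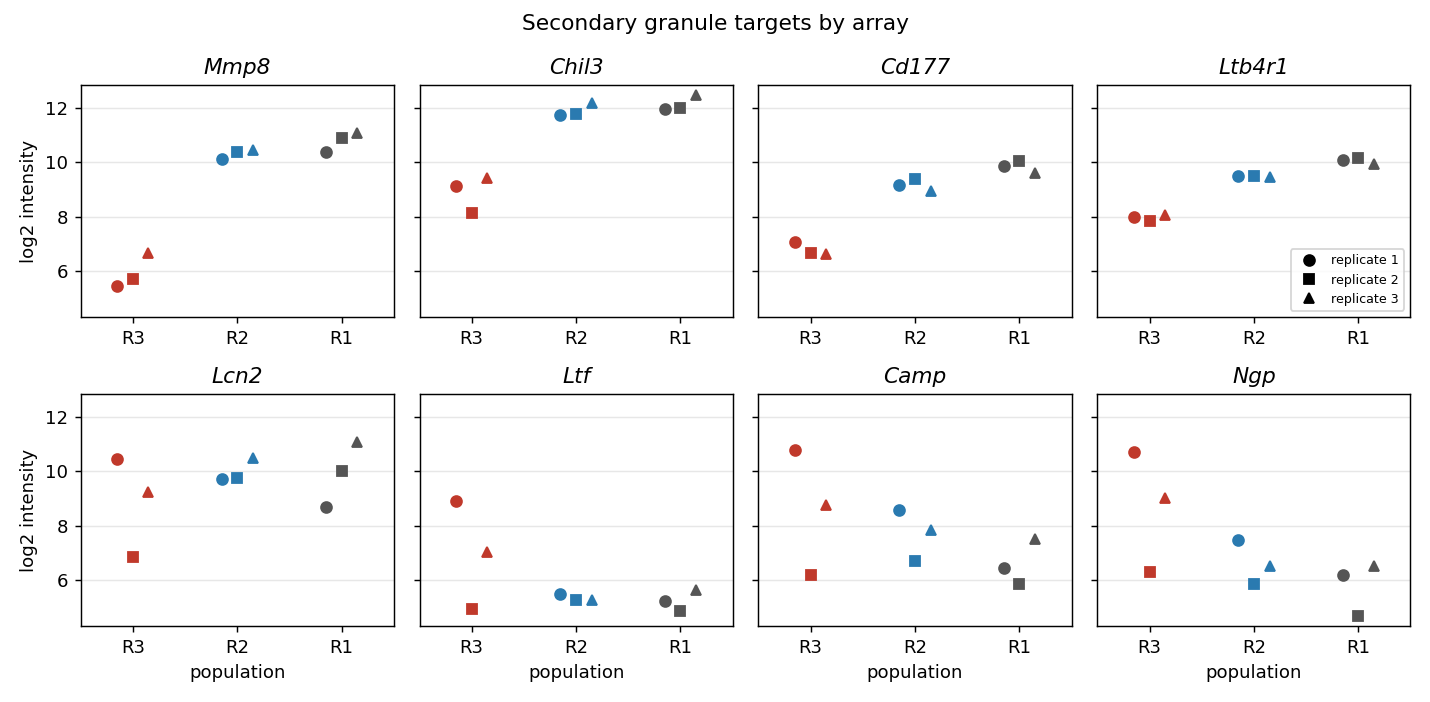
Log2 intensity of 8 secondary granule and late neutrophil genes on the 9 arrays, by population (R3, R2, R1), with a marker shape for the replicate number. In the upper row (*Mmp8*, *Chil3*, *Cd177*, *Ltb4r1*) all R3 arrays lie below the monocytes, and in the lower row (*Lcn2*, *Ltf*, *Camp*, *Ngp*) the R3 arrays are spread, with replicate 1 highest and replicate 2 lowest.

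*Mmp8*, which was called lower in R3, and *Ngp*, which was not called, both have letters of a C/EBP site in their promoters, and the early gene *Elane* has those of PU.1. The windows shown are the 250 bases before the RefSeq gene start (GRCm38.p6), of *Mmp8* at chr9:7558179-7558428, *Ngp* at chr9:110419558-110419807, and *Elane* at chr10:79886062-79886311, all on the plus strand. Capitals mark TTGCNNAA or GAGGAAGT on either strand.
Mmp8: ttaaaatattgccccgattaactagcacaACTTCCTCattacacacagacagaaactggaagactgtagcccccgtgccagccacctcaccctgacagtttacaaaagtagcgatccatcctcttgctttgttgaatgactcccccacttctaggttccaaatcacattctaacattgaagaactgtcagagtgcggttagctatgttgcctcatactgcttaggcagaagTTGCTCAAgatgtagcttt
Ngp: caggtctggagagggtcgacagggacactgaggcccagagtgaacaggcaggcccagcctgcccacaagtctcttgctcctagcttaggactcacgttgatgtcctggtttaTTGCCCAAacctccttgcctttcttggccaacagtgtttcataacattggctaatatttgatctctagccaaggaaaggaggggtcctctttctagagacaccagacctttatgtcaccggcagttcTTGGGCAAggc
Elane: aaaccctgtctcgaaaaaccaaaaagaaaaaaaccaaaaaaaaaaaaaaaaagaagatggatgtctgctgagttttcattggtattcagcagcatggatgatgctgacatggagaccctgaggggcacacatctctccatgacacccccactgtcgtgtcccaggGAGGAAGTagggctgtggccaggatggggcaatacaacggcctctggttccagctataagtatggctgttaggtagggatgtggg

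In *Mmp8*, TTGCTCAA starts 19 bases before the gene start, and ACTTCCTC, the PU.1 letters on the other strand, starts 221 bases before it. *Ngp* has TTGCCCAA at 138 and TTGGGCAA at 11 bases, and *Elane* has GAGGAAGT at 85 bases and no TTGCNNAA. Of the 9 secondary granule genes with a sequence, 4 had TTGCNNAA (*Ltf*, *Ngp*, *Lcn2*, and *Mmp8*), and of the 9 early myeloid genes with a sequence, 0 had it, beside 9.56% of all promoters. Of 11 acute phase and inflammatory genes with a sequence, 5 had it (*Saa3*, *Il6*, *Ptgs2*, *Ptx3*, and *S100a9*). GAGGAAGT was in 3 of the 9 early myeloid genes (*Mpo*, *Elane*, and *Prtn3*) and 2 of the 9 secondary granule genes (*Mmp8* and *Itgb2l*). It was also in 1 of the 11 acute phase genes (*S100a8*), beside 2.44% of all promoters. Of the 4 secondary granule genes with TTGCNNAA, *Mmp8* was called lower in R3 and the other 3 were not called. *Chil3* and *Cd177*, which were called lower, had the looser TTNNGNAA only, as did *Itgb2l*, which was not called. The looser letters were in 7 of the 9 secondary granule, 4 of the 9 early myeloid, and 10 of the 11 acute phase genes. Of all promoters, 36.8% had them. A gene was counted if any of its promoters had the letters, whereas the shares are per promoter (32851 promoters of 27025 gene symbols). The gene counts and the shares are thus not the same measure.

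Of 19 acute phase and inflammatory genes, many of which C/EBPβ or C/EBPδ are known to regulate, 4 were called lower in R3 than in R2. Against R1, 6 were called lower, and 0 were called higher in either comparison (median -0.11 and -0.30). *Il6*, *Il10*, *Ptx3*, *Ptgs2*, *Arg1*, *Csf3*, and *Nos2* were below the lowest array median (5.86) on every array, where a lower value could hardly be seen. *S100a8* and *S100a9*, not called, were spread in R3 (12.56, 9.35, and 11.44, and 12.54, 9.19, and 11.51). These genes were named after their values were seen. *Hp* (haptoglobin) was at 8.35, 7.96, and 8.68 in R3, 12.21, 12.21, and 12.26 in R2, and 12.24, 12.39, and 12.53 in R1. R3 was far below the monocytes on every array, by -3.89 against R2 (adjusted p = 1.56e-06, limma) and -4.05 against R1 (adjusted p = 6.37e-07). The chemokines *Ccl3* (-1.71) and *Ccl2* (-0.96) and the interleukin 1 receptor antagonist *Il1rn* (-0.59) were the others called against R2, and they were also called against R1 (-2.05, -1.12, and -0.63). *Ccl3* against R2 held in 13 of 23 alternatives and was lost without any 1 array of R2 or without R3 replicate 1 or 2 (adjusted p from 0.0905 to 0.126) and without the arrays of replicate 1 or 2 (0.302 and 0.310). Against R1 it was lost without the arrays of replicate 1 or 2 (0.117 and 0.101). *Il1rn* against R2 was lost without the arrays of replicate 1 or 2 (0.0583 and 0.0527), and *Ccl2* against R2 without those of replicate 3 (0.0981).

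The 2 further genes called lower in R3 than in R1, named after their values were seen, were *Tnf* (-0.49, adjusted p = 0.0486, limma) and the nuclear receptor *Nr4a1* (-0.68, adjusted p = 0.0287). *Tnf* held in 6 of 23 alternatives and was lost without any 1 array other than R1 replicate 3 or R3 replicate 3 (adjusted p from 0.0657 to 0.153) and with the label date as a block (0.0686). *Nr4a1* held in 12 of 23 and was lost without any 1 array of R1, R2 replicate 1, or R3 replicate 2 or 3 (adjusted p from 0.0502 to 0.0956). *Nr4a1* was at 8.13, 7.68, and 7.52 in R3, 7.79, 7.89, and 7.48 in R2, and 8.68, 8.35, and 8.35 in R1. In this gene R3 and R2 overlapped and R1 stood above both, whereas in *Hp* R2 and R1 overlapped and R3 stood apart.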

How the data were processed

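Gene expression was measured on 9 Affymetrix Mouse Gene ST arrays, 3 for each of R3, R2, and R1. According to the study's methods, 1 ng RNA per sample was amplified and biotin-labeled with NuGEN kits, and data were analyzed in GenePattern. The authors deposited 1 linear intensity per probe set and array, for 34760 probe sets, and all 9 columns were used. The sources used here do not name the background correction or the normalization. The number of arrays limits the precision.

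Intensities were put on the log2 scale with no offset and no filter on dim probe sets. Gene names are those of the platform annotation, in which 21640 name 1 gene, 1321 several, and 11799 none. A gene was read by the probe set that names it alone and has the highest mean (19937 genes, 954 of them with more than 1 such probe set). The 3 populations were fitted in 1 model with limma 3.58.1 in R 4.3.3 (lmFit and eBayes, 6 residual degrees of freedom), with Benjamini-Hochberg adjustment over all genes within each comparison and a threshold of 0.05. The fit was tested on simulated data. Ratios of members were compared with an interval from the spread pooled over populations and an exact two-sided permutation test.

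The replicate number stands for a date shared in the labels, which is where the pairing comes from. Deviations from the population means correlated between arrays of 1 date at -0.02 to 0.15, and over 0.1 in 4 of 9 pairs. The date as a block was an alternative, as the study's methods use an unpaired test.

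The members and gene lists were chosen with earlier results of these data known. Named in the text are all 5 members, from each list at most the 5 called genes with the largest difference in R3 minus R2, *Ddit3* and the *Trib* genes, for members with a range of at least 1 (log2) the 3 genes of highest Pearson correlation, and genes named after their values were seen. Marker lists for 11 cell types were summed per array. Promoters come from RefSeq (GRCm38.p6) and were matched by gene with Python 3.11.15 and pandas 2.3.3. Coordinates of the probe sets were not used here. Alternatives were other scaling (median centering, quantile), leaving out the dim genes, an offset of 16, all probe sets or their mean, the date as a block, array weights, only the populations compared, the methods' unpaired test, and leaving out each array and each date.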

Additional observations from a re-analysis of the deposited data

How the results depend on the processing

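*Cebpb* kept its direction and its call in all 23 alternatives for R3 against R2 (log2 differences from -1.60 to -1.43) and R3 against R1 (-1.92 to -1.74). *Cebpg* was called in none and kept its sign. With each array centered on its median, R3 minus R2 of *Cebpa* turned to 0.0092, and when arrays were left out it ranged from -0.13 to 0.061. R2 minus R1 of *Cebpe* ranged from -0.13 to 0.27 when arrays were left out, R3 minus R2 of *Cebpd* from -0.76 to -0.53, and R3 minus R1 of *Cebpe* from -1.08 to -0.80, with the lost calls given above. The methods' unpaired test leaves differences as they are. After adjustment it no longer called *Cebpd* (-0.64, adjusted p = 0.108) and *Cebpe* (-1.08, 0.0785) against R2, or *Cebpd* (-0.79, 0.112) and *Cebpe* (-0.97, 0.0705) against R1, so that 1 member was called in each comparison. Unadjusted, it called 1 member between R2 and R1, *Cebpb* (-0.32, unadjusted p = 0.0282).

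Over all genes, the methods' test after adjustment called 893 for R3 minus R2, 658 for R3 minus R1, and 1 for R2 minus R1, beside 1903, 2693, and 78 with limma, and 3460 and 1488 unadjusted in the first and the last comparison. Between R2 and R1 the count was 20 with centered arrays, 0 with all probe sets, 23 with the date as a replicate block (paired by date), 343 with array weights, and 1 with only these populations in the fit. Leaving out arrays gave 757 to 2183, 1117 to 2843, and 0 to 124 genes in the 3 comparisons. The block changed no call of a member. Of the list counts, 613 were within 1.5 times the main count and 77 were not. With the methods' adjusted test, 5 early myeloid genes and 1 acute phase gene were lower in R3 than in R1, beside 10 and 6 with limma. With only R3 and R1 in the fit, 3 acute phase genes were lower in R3. The cause of these changes was not tested.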

Other observations

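Markers of other cell types that the gate could hold were summed as linear intensities on each array. Of 4 measured erythroid markers, *Tfrc*, the transferrin receptor, which dividing cells of other lineages also express, was called higher in R3 than in the monocytes (2.51 over R2 and 3.49 over R1, log2, limma). The sum of these 4 was 1125 to 1265 in R3, 308 to 347 in R2, and 222 to 255 in R1, and the other 3 were not called. The sum of 4 megakaryocyte markers was 187 to 227 in R3, 217 to 1929 in R2, and 322 to 673 in R1, with 0 called. That of 6 basophil and mast cell markers was 221 to 396 in R3, 364 to 397 in R2, and 245 to 272 in R1, and the basophil protease *Mcpt8* was called lower in R3 than in R2 (-1.57, adjusted p = 0.0113). The 5 progenitor markers had sums of 605 to 735 in R3, 479 to 895 in R2, and 385 to 566 in R1. Of these, 1 was called higher in R3 than in R1, *Kit* (0.82, adjusted p = 0.0104, limma). *Kit*, named after its values were seen, encodes cKit, by which cells were gated out. Against R2 it was not called (0.57, adjusted p = 0.0733, limma). B cell markers summed to 556 to 612 in R3, 429 to 508 in R2, and 446 to 482 in R1. T cell markers summed to 181 to 207, 177 to 185, and 169 to 202, NK cell markers to 118 to 128, 116 to 129, and 122 to 135, and eosinophil markers to 168 to 187, 165 to 194, and 161 to 170 in R3, R2, and R1, with 0 called in these 4 lists of 5 markers each. The part of these cell types in the values of the C/EBP genes was not tested.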
